A study of Homo sapiens with 5 samples.

Results

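The genes described here are 10 members of the Hippo pathway and its transcriptional output, YAP1, TEAD1, CYR61, CTGF, ANKRD1, AMOTL2, AMOTL1, LATS2, AJUBA and AXL. They were chosen by symbol, and 9 of the 10 were listed in the count files of all 5 libraries. AMOTL1 was the exception. The files listed 21199 genes in any library and 15266 in all of them, of which 15028 were kept.

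The Hippo pathway is a kinase cascade that limits tissue growth. When the kinases MST and LATS are active they phosphorylate YAP1 and hold it in the cytoplasm, and when they are inactive YAP1 enters the nucleus and acts with TEAD proteins, which bind DNA. CYR61, CTGF and ANKRD1 are the customary readouts of this activity, AMOTL2 and LATS2 are induced targets that restrain YAP in turn, and in the intestinal epithelium the pathway is known for its part in regeneration and in colorectal tumors.

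The cells were SW480, an established human colorectal cancer line, carrying GFP. They were injected into zebrafish embryos, and tumors were dissected at 1 day and at 4 days post injection (dpi), with neither a drug nor a genetic change separating the time points. The comparison of the time points asks how the cells still in the fish at 4 dpi differ from those at 1 dpi, since part of the grafted cells are cleared in between. At both time points a pool of tumors was collected in medium holding the ROCK inhibitor Y-27632, digested with liberase and DNase, and sorted as single cells into 384-well plates for SORT-seq. SORT-seq reads the 3′ ends of polyadenylated RNA and counts molecules through unique molecular identifiers (UMIs). Libraries 6, 7 and 8, of 1 plate each, are the 1 dpi group, and libraries 10 and 11 are the 4 dpi group. The plates sample pooled tumors, so no value belongs to a single fish or tumor, and cells injected or cultured outside the fish were not analysed here.

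A well was kept as a cell when over 2000 genes were detected and mitochondrial UMIs made up under 25% of its total. This left 228, 142 and 163 cells for the 1 dpi libraries, in the order 6, 7, 8, and 132 and 161 for the 4 dpi libraries, in the order 10, 11, which is 826 of 1920 wells. Values given for a time point below follow this order. These cells held 7503665, 5376698 and 4781448 UMIs at 1 dpi and 3961242 and 3789632 UMIs at 4 dpi. The median depth per cell was 30874, 36197 and 25938 UMIs at 1 dpi and 26120 and 18823 UMIs at 4 dpi, so library 11 was the shallowest. All 384 well barcodes occur in every library, because each plate uses the same set, and a barcode shared between libraries does not mark a shared cell. The labels give no sequencing batch. The run names of the deposited files were read as a first flow cell for libraries 6, 7 and 10 and a second for libraries 8 and 11, an inferred split in which both time points occur in each.

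The cells carried the markers of an epithelial line. Levels are given as CPM, the UMIs of a gene per 1000000 UMIs of the cells of a library. Summed over EPCAM, KRT8, KRT18, KRT19, CDH1 and VIL1, the level was 4660, 5400 and 5710 CPM at 1 dpi and 4700 and 4870 at 4 dpi, with KRT8 the most abundant. The endothelial list summed to between 1.49 and 2.27 CPM, with CDH5 at 0 in all 5 libraries, and the leukocyte list to between 4.75 and 8.38, with MPO and AIF1 at 0. The fibroblast list summed to 23.4, 26.4 and 27.4 CPM at 1 dpi and 44.7 and 32.9 at 4 dpi, nearly all of it LUM and COL1A1, while COL1A2 was at 0 in every library. COL1A1 was the only gene of these 3 lists to pass the test between time points, with a log2 change of 2.14 ± 0.41 (SE), and its part in the results on the members was not tested.

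YAP1, the coactivator that the kinases restrain, was measured at 116, 117 and 135 CPM at 1 dpi and at 81.0 and 86.8 CPM at 4 dpi. Both 4 dpi libraries lay below all 3 of the 1 dpi libraries. The mean was 123 ± 10.7 CPM (SD, n = 3) at 1 dpi and 83.9 ± 4.10 (SD, n = 2) at 4 dpi. In a fit over all genes YAP1 fell by 0.57 ± 0.11 on the log2 scale (SE; edgeR quasi-likelihood test, Benjamini-Hochberg adjusted p = 0.00146), and the fall passed the test with any single library left out. It did not pass with cells thinned to 5000 UMIs, at -0.48 with an adjusted p of 0.0652, or with ERCC spike-ins as the scale, at -0.76 with an adjusted p of 1. Within the flow cells the log2 ratio was -0.52 for library 10 against libraries 6 and 7 and -0.63 for library 11 against library 8. A YAP1 UMI was found in 84.6%, 83.1% and 81.6% of the cells at 1 dpi and in 71.2% and 65.2% at 4 dpi. With every cell thinned to 5000 UMIs, the mean share was 44.0% at 1 dpi and 33.9% at 4 dpi, again with both 4 dpi libraries below the others.

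TEAD1, a DNA-binding partner through which YAP1 reaches its targets, went the other way. Its level was 95.7, 96.9 and 99.8 CPM at 1 dpi and 121 and 132 at 4 dpi. The 1 dpi libraries lay close together and below both 4 dpi libraries. The log2 change was 0.35 ± 0.10 (SE; edgeR quasi-likelihood test, adjusted p = 0.0165), with 0.33 in the first flow cell and 0.41 in the second. The call was lost without library 11, where the change was 0.29 with an adjusted p of 0.132, in cells under 15% mitochondrial UMIs, where it was 0.18 with an adjusted p of 0.293, with cells thinned to 5000 UMIs, where it was 0.39 with an adjusted p of 0.121, and with ERCC spike-ins as the scale, where it was 0.13 with an adjusted p of 1. The share of cells with a TEAD1 UMI overlapped between the time points, at 75.0%, 78.2% and 71.2% against 81.1% and 70.8%, but with every cell thinned to 5000 UMIs it did not, at 32.7%, 32.9% and 36.2% against 38.5% and 39.0%. Across cells TEAD1 was also the member whose level moved most with depth, with a mean within-library r of 0.27 to the log of UMIs per cell.

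The promoters of CTGF and ANKRD1 hold the core of the TEAD binding motif more than once and are shown for this reason. RefSeq promoter windows on GRCh38.p14, from 250 bases before to 50 after a gene's start, were matched for 8 of the 10 members, CYR61 and TEAD1 having no entry in the promoter table used, and gave 11 windows. Only the 250 bases before each start were searched, for the members and for all promoters alike. The motif searched was GGAATG on both strands, marked here by capitals. At least 1 match occurred in 11.9% of 35116 promoters, at least 2 in 0.94% and at least 3 in 0.0826%. The CTGF window had 3 matches, beginning 169, 104 and 95 bases before the start, and the ANKRD1 window had 2, beginning 220 and 128 bases before it. The stretches printed lie upstream of the annotated starts, at chr6:131951443-131951562 and chr10:90921197-90921327, both on the minus strand.
CTGF: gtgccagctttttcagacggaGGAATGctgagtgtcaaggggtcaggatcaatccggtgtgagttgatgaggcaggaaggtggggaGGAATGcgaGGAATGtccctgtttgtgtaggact
ANKRD1: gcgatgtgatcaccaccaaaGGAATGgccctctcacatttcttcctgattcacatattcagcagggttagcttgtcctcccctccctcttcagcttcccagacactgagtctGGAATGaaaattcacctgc
YAP1 itself, AMOTL2, AJUBA and AXL had 1 match each, the last 3 in the window of only the second of their 2 annotated starts, and LATS2 and AMOTL1 had none. Over the same 250 bases the AP-1 motif TGACTCA was present in 4.2% of all promoters. The CArG box, the motif of the factor SRF, was present there in 1.16%. Neither occurred in these bases of any matched member. A match describes the letters in a window and not binding.

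CYR61 and CTGF encode secreted matrix-associated proteins of the CCN family. CYR61 was measured at 4.53, 11.9 and 4.81 CPM at 1 dpi and at 8.58 and 24.3 at 4 dpi. Library 11 was the highest of the 5, while library 10 lay below library 7, so the time points overlapped. These levels rest on 34, 64, 23, 34 and 92 UMIs in libraries 6, 7, 8, 10 and 11, and the exact 95% counting interval of library 11, 19.6 to 29.8 CPM, lay above those of the other libraries, the nearest being 9.17 to 15.2 in library 7.

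The UMIs of CYR61 were held by few cells. A UMI was found in 9.65%, 16.9% and 9.20% of the cells at 1 dpi and in 12.9% and 18.6% at 4 dpi. In library 11 the 5 cells with the most held 47 of the 92 UMIs, and 1 of them held 19. Without the 5 highest cells of each library the level was 2.67, 6.51 and 2.09 CPM at 1 dpi and 3.53 and 11.9 at 4 dpi, which kept library 11 the highest and library 10 below library 7.

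In the fit CYR61 rose by 1.20 ± 0.41 on the log2 scale (SE; edgeR quasi-likelihood test, adjusted p = 0.0374), but the rise was not shared by the flow cells, with a log2 ratio of 0.06 in the first and 2.34 in the second. With the flow cell as a term it was 1.06, adjusted p = 0.0646. Without library 11 the change was 0.28, adjusted p = 0.72, without library 6 it was 0.91, adjusted p = 0.124, and without library 8 it was 1.02, adjusted p = 0.115. Without library 7 it was 1.80 and without library 10 it was 1.76, and both passed the test. DESeq2 gave 1.17 with an adjusted p of 0.325.

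CTGF was measured at 8.53, 9.49 and 6.27 CPM at 1 dpi and at 11.1 and 15.6 at 4 dpi. Both 4 dpi libraries lay above the 1 dpi libraries, by little in library 10, and the 59 UMIs of library 11 were concentrated, with 35 of them in 5 cells. Without the 5 highest cells of each library the time points overlapped, at 5.6, 6.14 and 2.51 CPM against 5.55 and 6.33. The log2 change was 0.68 ± 0.25 (SE), which did not pass the test (edgeR quasi-likelihood test, adjusted p = 0.0567). It was 0.30 in the first flow cell and 1.31 in the second, and it passed the test without library 10, at 0.90 with an adjusted p of 0.0396, and in cells under 15% mitochondrial UMIs, at 1.10 with an adjusted p of 0.00718.

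ANKRD1, a nuclear ankyrin-repeat protein first described in heart muscle, was near the limit of detection. Its 8, 2 and 3 UMIs at 1 dpi and 7 and 12 UMIs at 4 dpi came to 1.07, 0.372 and 0.627 CPM against 1.77 and 3.17. The 4 dpi libraries lay above the 1 dpi libraries, but the exact 95% counting intervals overlapped, from 0.460 to 2.10 in library 6 and from 0.710 to 3.64 in library 10. A UMI was found in 22 of the 826 cells. ANKRD1 did not pass the filter on low counts. Fitted without that filter its log2 change was 1.68 ± 0.58 (SE; edgeR quasi-likelihood test, adjusted p = 0.0397), while DESeq2 gave 1.76 with an adjusted p of 0.15.

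AMOTL2 encodes an angiomotin-like scaffold of cell junctions that binds YAP1 and keeps it out of the nucleus, and it is itself a YAP target. It was measured at 200, 233 and 159 CPM at 1 dpi and at 191 and 180 at 4 dpi. The 4 dpi libraries lay inside the range of the 1 dpi libraries, and the log2 change of -0.12 ± 0.13 (SE) did not pass the test (edgeR quasi-likelihood test, adjusted p = 0.525), with -0.18 in the first flow cell and 0.18 in the second. Its relative AMOTL1 was not listed in libraries 6, 7 and 8 and had 0 UMIs in the cells of library 10 and 1 in those of library 11, so no comparison of it could be made.

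LATS2, a kinase that phosphorylates YAP1, was measured at 28.4, 29.8 and 24.9 CPM at 1 dpi and at 18.9 and 21.1 at 4 dpi. Both 4 dpi libraries were below the 1 dpi libraries, and so was the share of cells with a UMI, at 25.8% and 28.0% against 37.3%, 36.6% and 33.1%. With cells thinned to 5000 UMIs the mean share was 9.02% at 4 dpi and 11.5% at 1 dpi, still without overlap. The time points overlapped when 2 UMIs were required. LATS2 fell by 0.50 ± 0.17 on the log2 scale (SE; edgeR quasi-likelihood test, adjusted p = 0.035). The ratio was -0.62 in the first flow cell and -0.24 in the second. Leaving out library 6, 7, 10 or 11 ended the call. The change was then -0.48 (adjusted p = 0.0788) for library 6 left out, -0.43 (0.11) for library 7, -0.43 (0.171) for library 10 and -0.57 (0.0729) for library 11. DESeq2 gave -0.51 with an adjusted p of 0.0993, and cells under 15% mitochondrial UMIs gave -0.15 with an adjusted p of 0.557.

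AJUBA, a LIM-domain protein of adherens junctions that binds LATS kinases, was measured at 63.0, 60.6 and 60.9 CPM at 1 dpi and at 71.4 and 62.8 at 4 dpi. AXL, a receptor tyrosine kinase and YAP target, was measured at 16.0, 14.1 and 13.6 at 1 dpi and at 13.4 and 18.2 at 4 dpi. For both genes the levels of the time points overlapped. The log2 changes, 0.10 ± 0.12 (SE) for AJUBA and 0.08 ± 0.21 (SE) for AXL, did not pass the test (edgeR quasi-likelihood test, adjusted p = 0.55 and 0.808), and the flow cells gave 0.21 and 0.05 for AJUBA and -0.17 and 0.42 for AXL. The share of cells with an AJUBA UMI did not overlap, at 60.5%, 70.4% and 63.8% at 1 dpi against 56.1% and 51.6% at 4 dpi, and both 4 dpi libraries also lay lower with cells thinned to 5000 UMIs, with a mean of 21.1% against 25.5%. Fewer cells had a UMI of AXL at 4 dpi, 18.2% and 18.6% against 25%, 28.2% and 27.0%, but with cells thinned to 5000 UMIs the mean share was higher at 4 dpi, 8.95% against 5.49%. The order of the AXL shares thus turned with the depth per cell, and none was read from it.

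**Figure D1:**
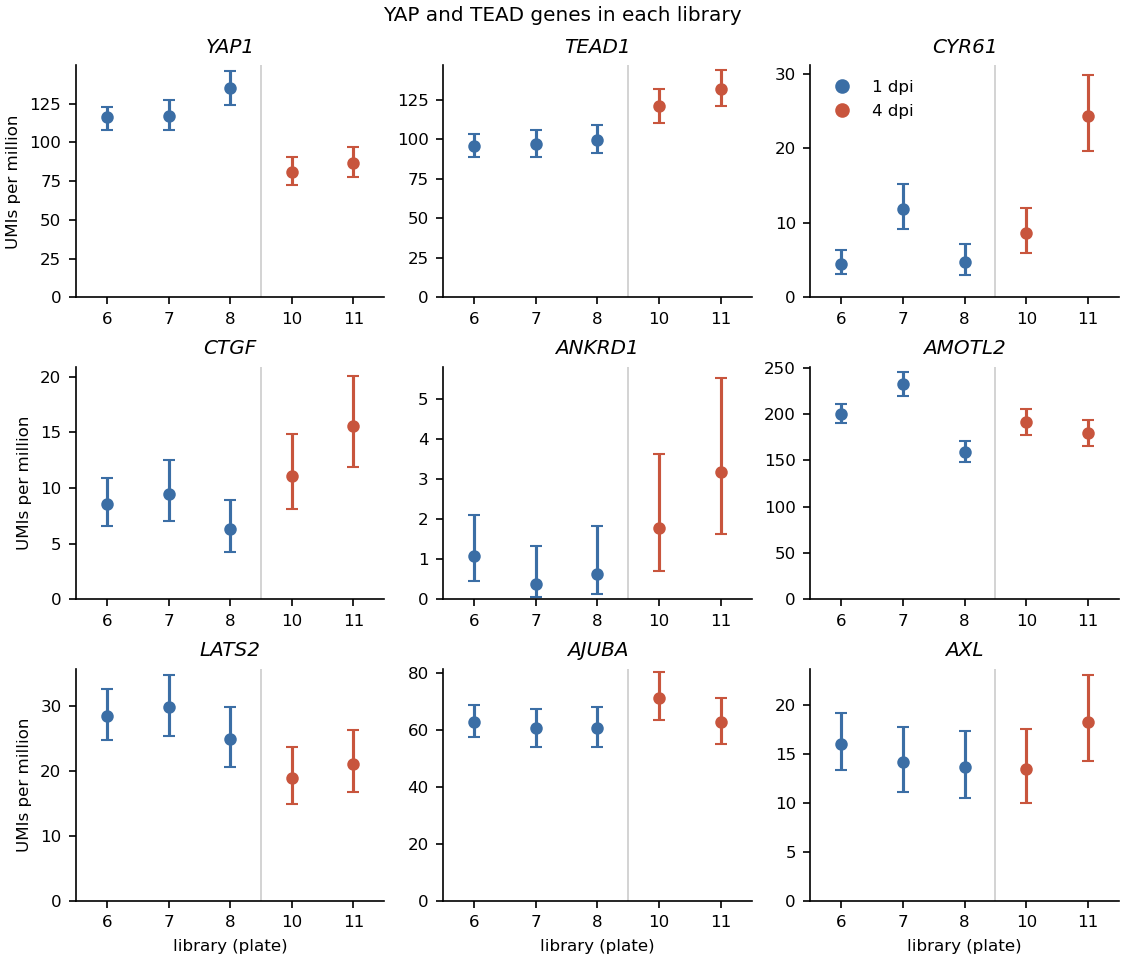
CPM of 9 members in each of the 5 libraries, on linear axes from 0 that differ between genes, with 1 dpi in blue and 4 dpi in red and bars for the exact 95% counting interval. YAP1 and LATS2 lay lower in both 4 dpi libraries, TEAD1, CTGF and ANKRD1 lay higher, and CYR61 was highest in library 11.

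Taking the time points as groups, 8 of the 10 members were tested and 4 passed, TEAD1 and CYR61 upward and YAP1 and LATS2 downward. This was against a background in which 27.6% of 12610 genes passed, 13.4% upward and 14.2% downward. The levels of the time points did not overlap for 4 of the 8 tested members, YAP1, TEAD1, CTGF and LATS2, against 54.2% of all genes tested (28.5% with higher levels at 4 dpi and 25.6% with lower). For a single gene an exact two-sided permutation test of 3 against 2 libraries cannot give a p below 0.1. When ERCC spike-in UMIs set the scale in place of human UMIs the median change of all genes was -0.20, 2 genes passed the test, and no member did. The 4 called members kept their direction there, with -0.76 for YAP1 and LATS2, 0.13 for TEAD1 and 0.61 for CYR61. Summed over the 10 members, the level was 533, 573 and 505 CPM at 1 dpi and 518 and 544 at 4 dpi, so the sum did not separate the time points while single members did.

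**Figure D2:**
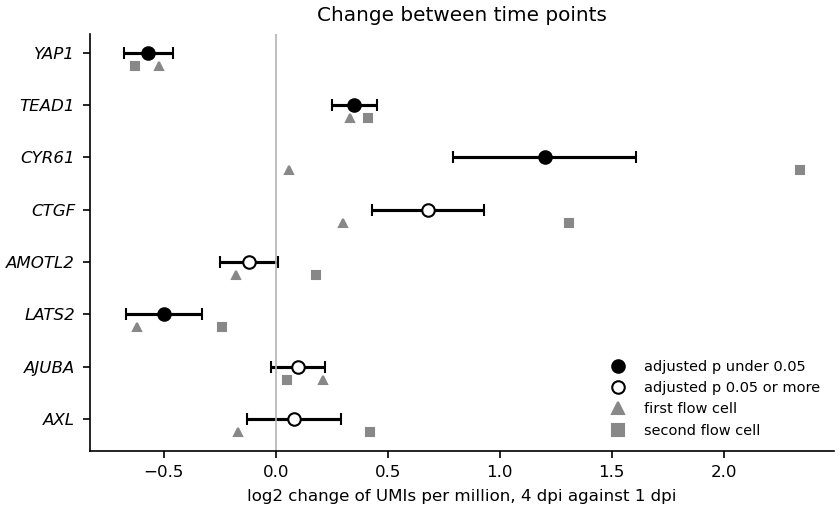
Log2 change from 1 dpi to 4 dpi of the 8 tested members, with the fit over all 5 libraries as circles (bars are 1 SE, filled where the adjusted p is under 0.05) and the ratio within the first flow cell as a triangle and within the second as a square. For YAP1 and TEAD1 the values of the flow cells lay close together, while for CYR61 they were 0.06 and 2.34.

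Other genes of the pathway were read from lists chosen by function. Of 20 further YAP and TEAD targets 16 were tested, and 1 rose and 2 fell, with a median log2 change of -0.08 against 0.00 over all genes. Of all genes tested 13.4% rose and 14.2% fell, so the count was not above this background. BIRC5, an inhibitor of apoptosis that is also a mitotic gene, rose by 1.25 ± 0.18 (SE). DOCK5, an exchange factor for Rac, fell by 0.77 ± 0.23 (SE).

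Among 8 TEAD proteins and cofactors, 5 were tested and VGLL3 alone passed. VGLL3, a cofactor that binds TEAD proteins, was at 9.60, 14.1 and 10.9 CPM at 1 dpi and at 5.30 and 4.22 at 4 dpi, a log2 change of -1.29 ± 0.29 (SE; edgeR quasi-likelihood test, adjusted p = 0.00456). WWTR1, which encodes the YAP1 relative TAZ, had a change of -1.30 ± 0.53 (SE) on 2 to 23 UMIs per library, which did not pass (edgeR quasi-likelihood test, adjusted p = 0.0776). TEAD4, another TEAD protein, was at 19.5, 21.4 and 27.0 CPM at 1 dpi and at 16.2 and 23.5 at 4 dpi, with overlap.

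Of 25 Hippo kinases and upstream regulators 23 were tested, and 2 rose and 3 fell, with a median log2 change of -0.16. Of all genes tested 13.4% rose and 14.2% fell, so this count too was not above the background. LATS1, the other LATS kinase, was at 119, 108 and 113 CPM at 1 dpi and at 78.5 and 56.2 at 4 dpi and fell by 0.77 ± 0.13 (SE). LATS2 was also lower at 4 dpi, but its call was lost in 9 of 16 alternatives. WWC1, which encodes the scaffold KIBRA, fell by 0.72 ± 0.13 (SE), and TAOK1, a kinase upstream of MST, by 0.47 ± 0.11 (SE). AMOT, the founding angiomotin and a relative of AMOTL2, rose by 1.13 ± 0.26 (SE), from 7.73, 4.46 and 8.99 CPM to 15.1 and 16.4. DCHS1, a protocadherin upstream of the kinases, rose by 1.56 ± 0.55 (SE) on 4 to 11 UMIs per library. Its level was 0.533, 1.12 and 0.837 CPM at 1 dpi and 2.78 and 2.11 at 4 dpi. The filter on low counts was thus passed through the 4 dpi libraries, where DCHS1 was higher, and nothing is read from this rise.

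Within a library, several members differed between cells that were rich and poor in RNA of immediate early genes, the transcripts that appear within minutes of a stimulus such as serum or tissue dissociation. Cells of each library were ranked by the share of their UMIs from 26 such genes, none of them a member, and UMIs were summed over the third with the highest share (high cells) and the third with the lowest (low cells). These are ranges of a continuous score and not cell types, and between 4 and 17 cells of a library lay within 10% of a boundary. Of the 8 members tested 7 were higher in the high cells and none lower, against a background in which 53.8% of 10192 genes passed, 27.6% upward. For CYR61 and CTGF, with 0 to 5 UMIs in the low cells of a library, the filter on low counts was passed through the high cells, and largely so for LATS2, with 6 to 20 UMIs, and AXL, with 3 to 17. A difference thus helped these 4 members into the test, so the count rests on AMOTL2, AJUBA and YAP1, and in the fit without the filter all 7 were called as well.

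CYR61 was at 0.829, 2.59 and 0.625 CPM in the low cells and at 9.22, 30.5 and 12 CPM in the high cells at 1 dpi. At 4 dpi it was at 0.827 and 0 CPM in the low cells and at 20.2 and 77.1 CPM in the high cells. The high cells of every library lay above the low cells of every library. The log2 ratio was 4.37 ± 0.47 (SE; edgeR quasi-likelihood test with library as a block, adjusted p = 2.22e-05). Since a difference helped CYR61 through the filter, it was also fitted without that filter, where the ratio was 4.35. Without library 11 it was 3.58 and without library 7 it was 4.96.

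CTGF was at 1.24, 2.07 and 1.87 CPM in the low cells and at 16.7, 17.5 and 7.45 in the high cells at 1 dpi, and at 0.827 and 3.55 against 27.3 and 50.4 at 4 dpi. Its log2 ratio was 3.31 ± 0.34 (SE; edgeR quasi-likelihood test, adjusted p = 1.6e-05), and 3.30 without the filter on low counts, which CTGF like CYR61 passed through its high cells. ANKRD1 was not in the filtered fit. All of its UMIs in these cells, 7, 1, 3, 7 and 11 in libraries 6, 7, 8, 10 and 11, lay in the high cells, with 0 in the low cells of every library.

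AMOTL2 was at 41.9, 72.5 and 47.5 CPM in the low cells and at 377, 410 and 275 in the high cells at 1 dpi, and at 45.5 and 52.5 against 366 and 330 at 4 dpi. The contrast was about as large in each library, and the log2 ratio was 2.60 ± 0.12 (SE; edgeR quasi-likelihood test, adjusted p = 7.13e-08). LATS2 was at 7.46, 10.4 and 5.62 against 51.1, 59.9 and 49.9 at 1 dpi and at 4.96 and 4.26 against 37.4 and 39.0 at 4 dpi, a log2 ratio of 2.67 ± 0.19 (SE; adjusted p = 1.61e-06 in the same edgeR fit). The AMOTL2 ratio was at rank 101 of 10167 genes.

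The remaining members moved less. The log2 ratio was 1.85 ± 0.31 (SE) for AXL, 1.25 ± 0.20 (SE) for AJUBA and 0.53 ± 0.12 (SE) for YAP1, each higher in the high cells of all 5 libraries (edgeR quasi-likelihood test, adjusted p = 0.000415, 0.000396 and 0.00233). Across single cells, however, the mean within-library r to the immediate early share was 0.06 for AXL and 0.02 for YAP1, against 0.20 for AJUBA. For YAP1 it ran from -0.12 to 0.11 in the libraries. TEAD1 had a ratio of -0.35 ± 0.17 (SE), which did not pass (adjusted p = 0.101 in the same edgeR fit). YAP1 and TEAD1 thus differed far less between these cells than AMOTL2 did. With cells thinned to 5000 UMIs before ranking, AMOTL2, LATS2 and AJUBA passed, YAP1 did not, at 0.26 with an adjusted p of 0.292, and CYR61, CTGF and AXL were not tested.

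The contrast ran alongside cell quality measures. The median mitochondrial share was 14.8%, 12.8% and 11.8% in the low cells and 10.1%, 9.92% and 8.67% in the high cells at 1 dpi, and 16.3% and 16.3% against 7.59% and 9.11% at 4 dpi. In libraries 7, 8 and 11 the low cells were also deeper, with a median of 41153, 28676.5 and 25209 UMIs against 33246, 24086 and 14273.5. The part of these differences in the members' ratios was not tested. Of the 20 further YAP and TEAD targets 12 were tested here, 7 were higher and 1 was lower, where 27.6% of all genes were higher and 26.2% lower, and no test of the lists was made. BIRC5 was the lower one, by 1.07 ± 0.34 (SE). A difference can help a gene of few UMIs through the filter on low counts, as for CYR61. Nothing is therefore read from the counts of this list or of the kinases and regulators that follow. Of the Hippo kinases and upstream regulators 10 of 21 tested were higher and 1 was lower, with LATS1 higher by 1.09 ± 0.11 (SE), and TEAD4, the only gene tested from the list of TEAD proteins and cofactors that are not members, did not pass, at -0.35 ± 0.19 (SE).

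**Figure D3:**
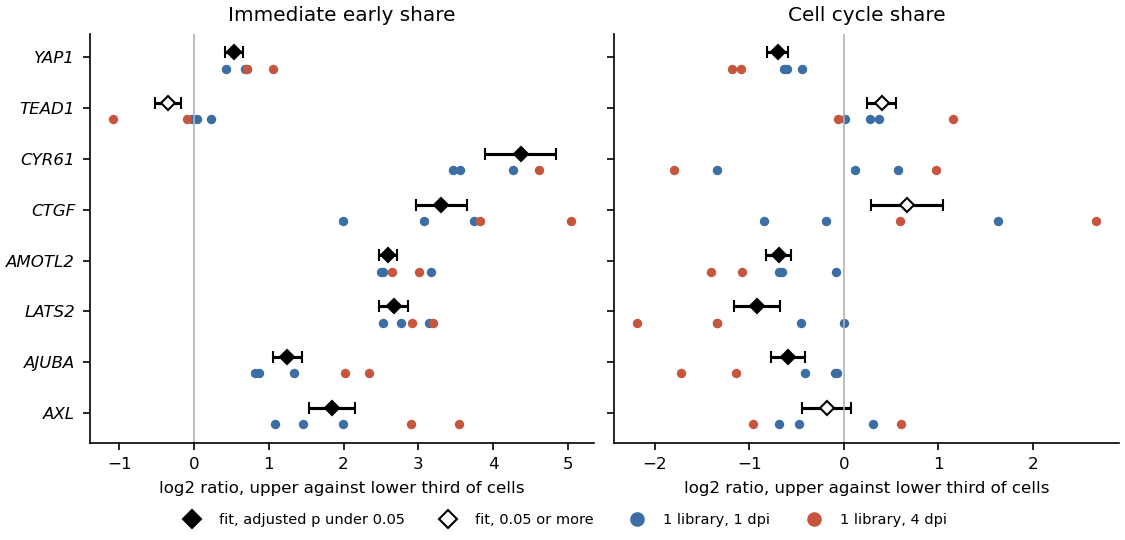
Log2 ratio of CPM between high and low cells, ranked by the immediate early share (left) and by the cell cycle share (right), with the fit as diamonds (bars are 1 SE, filled where the adjusted p is under 0.05) and each library as a point, blue for 1 dpi and red for 4 dpi. CYR61 has no fit on the right. The points are ratios of CPM without the scaling factors used in the fit. On the left CYR61, CTGF, AMOTL2 and LATS2 lay far to the right of 0 in all libraries drawn (CYR61 of library 11 has no point, its low cells being at 0). On the right YAP1, AMOTL2 and AJUBA lay left of 0 in every library.

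For 2 members the immediate early contrast differed between the time points in a test of the difference itself, against a background of 11.2% of genes, 6.14% upward and 5.04% downward. AJUBA had a log2 ratio of 0.87 at 1 dpi and 1.96 at 4 dpi, a difference of 1.09 ± 0.27 (SE; edgeR quasi-likelihood test, adjusted p = 0.0101). TEAD1 had -0.09 at 1 dpi and -0.78 at 4 dpi, a difference of -0.69 ± 0.22 (SE; edgeR quasi-likelihood test, adjusted p = 0.0435). The TEAD1 difference came from library 11, where the low cells were at 188 and the high cells at 88.5 CPM, while library 10 had 129 and 120. Without library 11 it was -0.23 with an adjusted p of 0.657, and it also missed the threshold without library 6, 7 or 8, at -0.77, -0.71 and -0.62. The AJUBA difference was 0.93 without library 11, adjusted p = 0.13. With DESeq2 neither passed, at adjusted p = 0.0859 for AJUBA and 0.219 for TEAD1. No difference is given for CYR61, whose low cells in library 11 held 0 UMIs.

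Ranked by the share of 39 cell cycle genes, the high cells had less of several members. Of the 7 members that could be tested 4 were lower and none higher, with a median log2 ratio of -0.59, against a background in which 25.7% of 9936 genes passed, 11.7% downward. CYR61 and ANKRD1 did not pass the filter on low counts. The immediate early genes were lower too, 17 of 24 tested and none higher, with a median log2 ratio of -0.61, and in the immediate early contrast 16 of 38 tested cell cycle genes were lower and 1 higher, so the contrasts are not separate results. Here between 9 and 30 cells of a library lay within 10% of a boundary, and the high cells were deeper than the low cells in all 5 libraries, for example 38076 against 16835 median UMIs in library 8. The median mitochondrial share was 13.2%, 11.6% and 9.57% in the low cells and 13.1%, 11.5% and 11.3% in the high cells at 1 dpi, and 9.3% and 9.92% against 15.4% and 15.5% at 4 dpi, and its part in the members' ratios was not tested.

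YAP1 was at 135, 147 and 154 CPM in the low cells and at 89.5, 95.2 and 114 in the high cells at 1 dpi, and at 111 and 124 against 52.1 and 54.7 at 4 dpi. It was lower in the high cells of every library, with a log2 ratio of -0.70 ± 0.11 (SE; edgeR quasi-likelihood test, adjusted p = 0.000178), which did not pass with cells thinned to 5000 UMIs, at -0.53 with an adjusted p of 0.0718. AMOTL2 was likewise lower in every library, at 189, 248 and 203 against 179, 158 and 126 at 1 dpi and at 280 and 231 against 132 and 87.0 at 4 dpi, a log2 ratio of -0.69 ± 0.13 (SE; edgeR quasi-likelihood test, adjusted p = 0.000843). LATS2 had a ratio of -0.92 ± 0.24 (SE; adjusted p = 0.00988 in the same edgeR fit), with 18.9 CPM in both the high and the low cells of library 8 and 38.4 against 8.42 in library 11.

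AJUBA was at 63.0, 56.9 and 63.3 CPM in the low cells and at 47.5, 53.6 and 60.2 in the high cells at 1 dpi, and at 109 and 111 against 49.4 and 33.7 at 4 dpi. The contrast was small at 1 dpi and large at 4 dpi. At 4 dpi the high cells of both libraries also had a higher mitochondrial share, whose part in this contrast was not tested. To that share AJUBA had a mean within-library r of -0.32. Its log2 ratio was -0.59 ± 0.18 (SE; edgeR quasi-likelihood test, adjusted p = 0.0194), and it missed the threshold without library 10 (-0.49, adjusted p = 0.0796) or without library 11 (-0.39, adjusted p = 0.0872). Over the 10 alternatives run this ratio went from -1.23 to -0.39. Tested directly, the difference between the time points was -1.08 ± 0.25 (SE; edgeR quasi-likelihood test, adjusted p = 0.0477), from -0.19 at 1 dpi to -1.27 at 4 dpi, and AJUBA was the 1 member to pass where 0.735% of genes did. That call was lost with any single library left out, the values running from -1.38 without library 10 to -0.82 without library 11, and with DESeq2, at an adjusted p of 0.303.

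The other members did not pass in the cell cycle contrast over all libraries. At 4 dpi alone TEAD1, at 0.66 with an adjusted p of 0.0339, and CTGF, at 1.59 with an adjusted p of 0.0417, were higher in the high cells, but for neither did the difference between the time points pass (edgeR quasi-likelihood test, adjusted p = 0.643 and 0.452). TEAD1 had a log2 ratio of 0.40 ± 0.15 (SE; edgeR quasi-likelihood test, adjusted p = 0.0525) and passed without library 8, at 0.50, or without library 10, at 0.49. Without library 11 it was 0.19 with an adjusted p of 0.251, since library 11 alone had a ratio of 1.16, against -0.06 to 0.37 in the others. CTGF had 0.67 ± 0.38 (SE) and AXL -0.18 ± 0.26 (SE), with libraries on both sides of 0 for each. Of the further YAP and TEAD targets 10 were tested, 1 was higher and 5 were lower, where 14% of all genes were higher and 11.7% lower. The higher gene was BIRC5, at 3.08 ± 0.29 (SE).

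Correlations across single cells describe which members were found in the same cells. They were computed within each library on the log of the share of UMIs and averaged over the 5 libraries, 826 cells in all. Cells of a library share a plate, and low counts pull r toward 0. Over the 36 pairs of the 9 members the median r was 0.17, from -0.02 to 0.47.

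The highest values linked the junction and feedback genes. AMOTL2 and LATS2 had r = 0.47, between 0.36 and 0.58 in the libraries, and AMOTL2 and AJUBA had 0.43, between 0.36 and 0.50. Among 8252 genes with a UMI in at least 20% of the cells of every library, AMOTL2 was the gene with the highest r to LATS2 and also the highest to AJUBA. In the other direction, LATS2 was at rank 18 and AJUBA at rank 38 for AMOTL2. AJUBA in turn was the highest for YAP1, at 0.32, between 0.27 and 0.39. With cells thinned to 5000 UMIs the AJUBA and YAP1 value was 0.11, and that of AMOTL2 and AJUBA, 0.30, was above the 0.25 of AMOTL2 and LATS2. TEAD1 had means from -0.02 to 0.08 to the other members, with values from 0.04 to 0.21 in library 6 and from -0.13 to 0.03 in library 11. CTGF also had low means to YAP1, 0.02, and to AJUBA, 0.06.

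**Figure D4:**
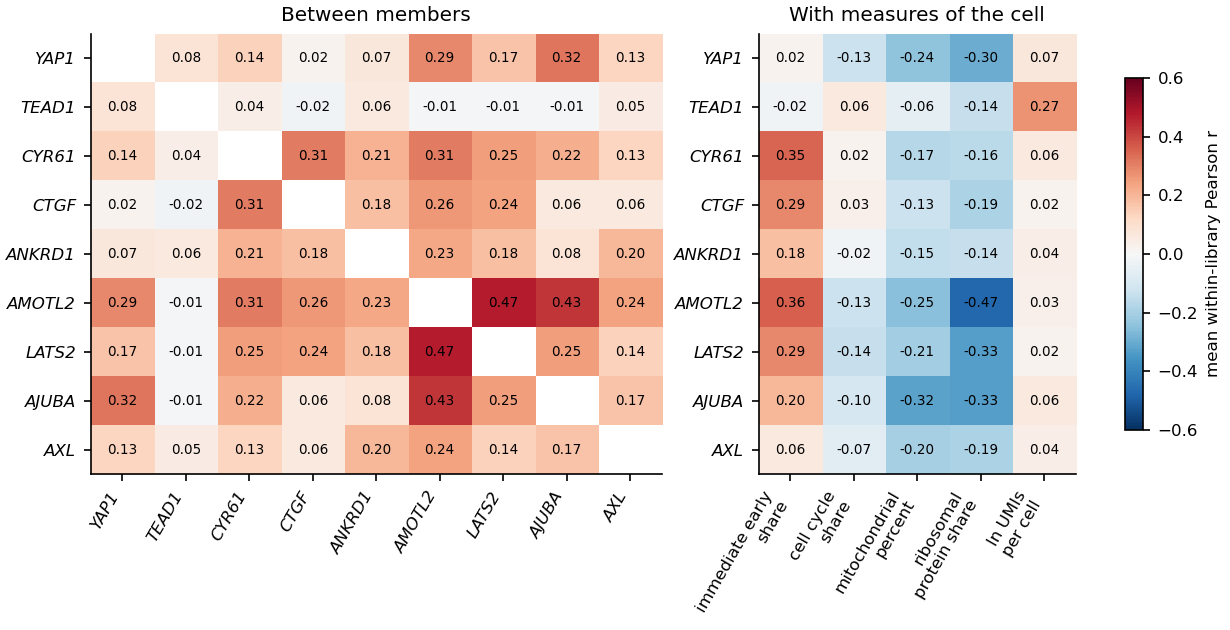
Mean within-library Pearson r between 9 members (left) and between each of them and 5 measures of the cell (right), over 826 cells and with 1 colour scale. On the left the highest values are those of AMOTL2 with LATS2, 0.47, and with AJUBA, 0.43, and the TEAD1 line lies between -0.02 and 0.08.

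CYR61 and CTGF had r = 0.31, with 0.36, 0.30 and 0.02 at 1 dpi and 0.43 in both 4 dpi libraries. Library 8 was thus the exception. The 5 genes with the highest r to CYR61 were PLK2 (0.38), a stress-induced kinase, CCNL1 (0.37), a cyclin that acts in splicing, ID2 (0.36), an inhibitor of helix-loop-helix factors, and EGR1 (0.35) and PPP1R15A (0.32), both immediate early genes. Those with the highest r to CTGF were ID2 (0.39), GADD45B (0.36), CRY1 (0.36), RGS2 (0.35) and ING1 (0.34). AMOTL2 was at rank 14 for CYR61 among 8253 genes, with r = 0.31, and at rank 54 for CTGF, with 0.26.

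The members differed in how far they went with low ribosomal protein RNA. To the share of UMIs from 84 ribosomal protein genes, the mean within-library r was -0.47 for AMOTL2 and -0.33 for LATS2 and AJUBA. It was -0.30 for YAP1, -0.19 for CTGF and AXL, -0.16 for CYR61 and -0.14 for ANKRD1 and TEAD1. The TEAD1 mean covered values of -0.28, -0.27 and -0.31 at 1 dpi and 0.20 and -0.04 at 4 dpi. Its 1 dpi values lay within the range of YAP1 over the libraries, from -0.41 to -0.21. To the immediate early share the mean r was 0.36 for AMOTL2, 0.35 for CYR61 and 0.29 for CTGF and LATS2. It was 0.20 for AJUBA, 0.18 for ANKRD1, 0.06 for AXL, 0.02 for YAP1 and -0.02 for TEAD1. To the mitochondrial share it was -0.32 for AJUBA and -0.25 for AMOTL2. With the ribosomal protein share regressed out the AMOTL2 and LATS2 value was 0.37, and with depth, mitochondrial, immediate early and cell cycle shares regressed out it was 0.36.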

How the data were processed

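Single SW480 cells were measured by SORT-seq on 5 plates. The authors deposited UMI counts per gene and well, aligned with BWA to hg38 per the labels, with no version stated there. Cells with more than 2000 genes (ERCC spike-ins counted) and less than 25% mitochondrial UMIs were kept. UMIs were summed per library, or per library and over its high or low cells, and fitted with edgeR 4.0.16 and limma 3.58.1 in R 4.3.3 (TMM, filterByExpr, quasi-likelihood test, two-sided, Benjamini-Hochberg over all genes tested, threshold 0.05). High and low cells were fitted with library as a block. Correlations and permutation tests used Python 3.11.15 with scipy 1.17.1, on ln(1 + 10000 × share of UMIs). The tests were checked on simulated data. The library was the unit, and since plates sample pooled tumors, p-values measure the spread between plates, which may be technical. The labels do not say whether each plate came from its own pool, so plates of 1 time point may share a pool. Counting intervals (exact, 95%) cover counting error only. Depth was 3789632 to 7503665 UMIs per library. Alternatives were DESeq2 1.42.0, other scalings, filters and thinning, flow cell as a term, and each library left out. Regressed-out correlations, values within a flow cell and the alternatives for the differences between time points were chosen after seeing the data. The rule for names allowed all members, in each further list up to 3 rises and 3 falls called with time (all genes in lists of 8 or fewer), and the 5 genes with the highest r to CYR61 and CTGF. Not every gene it allowed is named, and 1 of them is counted but not reported here. The members and lists were chosen with earlier results of these data known.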

Additional observations from a re-analysis of the deposited data

Results flagged for a closer look

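The immediate early contrast of AJUBA differed between the time points by 1.09 on the log2 scale (0.87 at 1 dpi, 1.96 at 4 dpi), and that of TEAD1 by -0.69 (-0.09 at 1 dpi, -0.78 at 4 dpi), each in a test of the difference itself. The cell cycle contrast of AJUBA differed by -1.08 (-0.19 at 1 dpi, -1.27 at 4 dpi) in the same kind of test. Each of these calls was lost without library 11, and the cause was not tested. The 1094 wells outside the cell filter held 481 UMIs of the members, for example 58 and 68 of TEAD1 in libraries 10 and 11, where 227 and 193 wells had too few genes and 138 and 110 too high a mitochondrial share. With groups of 3 and 2 libraries, none was tested as standing apart from its group.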

How the results depend on the processing

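No called change turned its direction, but the AXL share of cells with a UMI went from -8.33 to 3.46 percentage points when thinned. Between time points 4 members were called. DESeq2 called 2, ERCC scaling 0, thinning to 5000 UMIs 0 and equal weight per cell 2, and leaving out a library gave 1 to 4, CTGF among the 4 without library 10. In total 3484 genes were called, 2 with ERCC scaling and 1065 of 8856 tested with thinning. ERCC scaling gave -0.76 for YAP1, 0.13 for TEAD1, 0.61 for CYR61 and -0.76 for LATS2, with none called. The human UMIs per ERCC UMI were 105, 128 and 55.6 at 1 dpi and 102 and 44.1 at 4 dpi (medians over cells), so this scale split by flow cell. Thinning gave -0.48 for YAP1, 0.39 for TEAD1 and -0.38 for LATS2, none called, with fewer UMIs by construction, and CYR61 and CTGF did not pass its filter on low counts. DESeq2 gave 1.17 for CYR61 and -0.51 for LATS2, and equal weight per cell 0.89 and -0.35, none called. A 15% mitochondrial maximum lost TEAD1 (0.18) and LATS2 (-0.15), and the flow cell term lost CYR61 (1.06). CTGF gained a call with totals without TMM (0.71), over 1000 genes (0.71), over 3000 genes (0.70) and a 15% mitochondrial maximum (1.10). Leaving out a library gave -0.61 to -0.50 for YAP1, 0.29 to 0.41 for TEAD1, 0.28 to 1.80 for CYR61, 0.42 to 0.90 for CTGF and -0.57 to -0.43 for LATS2. Over all 16 alternatives the AXL change went from -0.22 to 0.78, with none called.

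Thinning gave 3 members called in the immediate early contrast, where CYR61, CTGF and AXL were not tested and YAP1 lost its call (0.26), and 2 in the cell cycle contrast, where LATS2, CTGF and AXL were not tested and YAP1 lost its call (-0.53). Differences between time points were called 3 times, by DESeq2 0 times and with a library left out 0 to 3 times, CYR61 among the 3 without library 10, where its low cells at 4 dpi held 0 UMIs. The AMOTL2 and LATS2 r was 0.25 thinned, 0.36 with cell measures regressed out and 0.37 with the ribosomal protein share regressed out. Time points did not overlap in the share of cells with a UMI for 5 members, and for 3 when 2 UMIs were required. No share over all genes was computed for this measure, which also moves with the depth per cell, so nothing is read from these counts. Except where construction shows it, the cause was not tested. Thinned correlations with CYR61 or ANKRD1, and their median, gave no value, because a thinned library held 0 UMIs of these genes.

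Depth limits ANKRD1, AMOTL1, CYR61 and CTGF most: 5 cells held 34.4% to 60.0% of the CTGF UMIs of a library. With 3 against 2 libraries the exact permutation test cannot go below 0.1, and leaving out library 10 or 11 leaves 1 library at 4 dpi, assumed to vary like the others. Plates of pooled tumors do not show the spread between fish, and time and any plate effect cannot be told apart beyond the 2 flow cells.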

Other observations

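Genes of other programs also moved between the time points, where 13.4% of all genes tested rose and 14.2% fell. Of 13 cytoskeletal targets of SRF and its coactivator MRTF, 11 were tested and 10 fell and none rose, with a median log2 change of -0.83 against 0.00 over all genes. MYL9, a myosin light chain, fell by 2.02 ± 0.53 (SE), TAGLN, an actin cross-linker of smooth muscle, by 1.21 ± 0.35 (SE), and FHL2, a LIM-domain coactivator, by 1.05 ± 0.15 (SE). MYL9 was at 7.46, 9.67 and 2.72 CPM at 1 dpi and at 1.77 and 1.58 at 4 dpi. It passed the filter on low counts through the 1 dpi libraries, where it was higher. It is among the 10 counted and enters the median, but nothing is read from its fall. FHL2 was at 165, 214 and 175 CPM at 1 dpi and at 106 and 75.5 at 4 dpi, without overlap, while TAGLN was at 24.4, 32.5 and 17.1 against 4.80 and 17.2, with overlap. In the immediate early contrast 3 of 10 tested genes of this list were higher and 5 lower, where 27.6% of all genes were higher and 26.2% lower. In the cell cycle contrast 1 was higher and 4 lower, where 14% of all genes were higher and 11.7% lower.

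Of the 26 immediate early genes 4 rose and 11 fell with time, with a median log2 change of -0.27, and of 38 tested cell cycle genes 24 rose and 1 fell, with a median of 0.76. Of the 6 epithelial markers 1 rose and 3 fell. The leukocyte list had 1 tested gene, CD68, at -0.96 ± 0.49 (SE), which did not pass, and the endothelial list had 0.

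The gene with the highest r to AMOTL2 was KLF10, at 0.58, between 0.50 and 0.66 in the libraries, and the gene with the lowest was GAPDH, at -0.48. These genes were chosen after their values were seen.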
